A study of Mus musculus with 11 samples.

Results

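The genes described here are 8 markers of glioma cells and neural progenitors, Olig2, Olig1, Cd44, Nes, Prom1, Sox2, Pdgfra and Vim. They were taken by symbol from a table of 45865 genes, and each was listed once in every library. The question was how much of these transcripts came along when endothelial ribosomes were pulled down from GL261 glioma, as carry-over of tumour cell RNA, and whether that differed from healthy brain or with the genotype of the host. The groups were GL261 tumour of Eltd1-/- mice (knockout, n = 2), GL261 tumour from wild type hosts (n = 3), healthy brain of Eltd1-/- mice (n = 3) and healthy wild type brain (n = 3). All were adult C57BL/6 mice, and each library was 1 mouse sample. Per the study's design text, the mice expressed ribosomal protein L10a fused to eGFP from the promoter of VE-cadherin, so that only endothelial ribosomes should carry the tag, and GL261, a mouse glioma cell line of C57BL/6 origin, was injected into the brain. Per the protocol 3 mice of every group were chosen for sequencing, of which 2 knockout tumours are analysed here. GL261 is 1 cell line, and it was the same line in both genotypes.

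Glioma cells share transcription factors and filament proteins with the progenitors from which glia develop, which is why these genes serve as tumour cell markers. Olig2 and Olig1 are basic helix-loop-helix factors of the oligodendrocyte lineage, and Sox2 is an HMG-box factor of stem cells. Nestin (Nes) and vimentin (Vim) are intermediate filament proteins, CD44 is a hyaluronan receptor of mesenchymal-like glioma cells, prominin-1 (Prom1, CD133) is a membrane glycoprotein used to sort glioma stem cells, and Pdgfra is the receptor of oligodendrocyte precursors for platelet-derived growth factor. None of these markers belongs to tumour cells alone: endothelial cells make vimentin, nestin and CD44, oligodendrocyte precursors make Olig1, Olig2 and Pdgfra, and fibroblasts make Pdgfra.

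Promoter sequences were looked up to show the start sites of the genes on which the results below turn, the 3 markers that rose in tumour in both genotypes and Prom1, which was lower there in wild type mice. The RefSeq promoter table of GRCm38.p6 held 7 of the 8 markers. The windows run from 250 bases before to 50 bases after the gene start and are written 5′ to 3′ on the strand of the gene. Capitals mark motif matches on either strand, which may overlap. The GC box was searched for as GGGCGG, which promoters without other core elements often hold. The TATA box, which places the start of transcription, was searched for as TATAAA. The site of the AP-1 factors, known from growth and stress responses, was searched for as TGANTCA. The E-box, the kind of site that basic helix-loop-helix factors such as Olig2 bind, was searched for as CANNTG. Olig2 lies at chr16:91225300-91225599 (plus strand), Cd44 at chr2:102901616-102901915 (minus), Vim at chr2:13574061-13574360 (plus) and the upstream of the 2 Prom1 starts at chr5:44101687-44101986 (minus).
Olig2: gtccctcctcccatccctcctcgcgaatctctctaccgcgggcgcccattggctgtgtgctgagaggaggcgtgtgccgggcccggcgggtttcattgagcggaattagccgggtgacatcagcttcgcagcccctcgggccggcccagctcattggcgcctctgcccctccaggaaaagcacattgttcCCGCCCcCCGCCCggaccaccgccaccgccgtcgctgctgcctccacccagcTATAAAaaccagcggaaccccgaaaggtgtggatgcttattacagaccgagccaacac
Cd44: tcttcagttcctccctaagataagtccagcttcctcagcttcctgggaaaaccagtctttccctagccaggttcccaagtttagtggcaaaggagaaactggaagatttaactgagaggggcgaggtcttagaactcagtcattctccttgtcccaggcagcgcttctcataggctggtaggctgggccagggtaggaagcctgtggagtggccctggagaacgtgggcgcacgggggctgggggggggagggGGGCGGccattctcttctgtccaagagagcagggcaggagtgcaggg
Vim: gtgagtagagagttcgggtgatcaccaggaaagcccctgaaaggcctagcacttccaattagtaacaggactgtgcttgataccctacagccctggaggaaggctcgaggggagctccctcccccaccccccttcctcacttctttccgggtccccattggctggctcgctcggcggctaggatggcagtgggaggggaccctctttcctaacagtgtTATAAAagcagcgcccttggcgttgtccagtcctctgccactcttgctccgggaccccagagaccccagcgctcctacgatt
Prom1: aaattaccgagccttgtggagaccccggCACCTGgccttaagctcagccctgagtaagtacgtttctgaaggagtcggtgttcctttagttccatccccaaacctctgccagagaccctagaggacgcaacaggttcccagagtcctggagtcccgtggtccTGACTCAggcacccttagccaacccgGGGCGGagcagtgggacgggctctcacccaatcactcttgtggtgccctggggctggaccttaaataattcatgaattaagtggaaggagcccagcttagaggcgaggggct
The Olig2 window held 2 GC boxes and 1 TATA box, the Vim window 1 TATA box, the Cd44 window 1 GC box, and the Prom1 window 1 GC box, 1 AP-1 site and 1 E-box. Of 32851 promoter windows of this length, counted with 1 chromosome left out, 35.7% held a GC box, 13.6% a TATA box, 7.81% an AP-1 site and 72.3% an E-box. The matches describe these letters only.

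Values were FPKM, fragment counts divided by transcript length and by the mapped fragments of the library. FPKM sums per library lay between 477911 and 641665, and the number of genes above 0 between 8978 and 15434. Sequencing depth is unknown, and between 4 and 13 of the 13 mitochondrial mRNAs were at 0 in each library, so a marker at 0 is described only as listed at 0. Adgrl4, the current symbol of Eltd1, was listed at 11.5 and 5.82 FPKM in knockout tumours, 45.0, 192 and 27.4 in wild type tumours, 21.6, 23.6 and 22.2 in knockout brains and 166, 82.7 and 153 in wild type brains. Within each tissue the knockout libraries all lay below the wild type ones. Wild type tumour replicate 2 stood apart, with 23.2% of 9969 expressed genes at 0. Wild type brain replicates 1 and 2 followed, with 6.15% and 4.26% at 0, and the other libraries had at most 1.34%. The summed level of 10 neuron markers was 4681 to 5922 FPKM in knockout brains and 5280 to 6422 in wild type brains. It was 678 to 1391 FPKM in knockout tumours and 95.9 to 2884 in wild type tumours, highest in replicate 3. All 12 endothelial markers were above 0 in every library. Their summed level was 543 to 660 FPKM in knockout tumours and 289 to 809 in wild type tumours, against 1381 to 1943 in knockout brains and 1250 to 1468 in wild type brains. FPKM is relative to the whole library. In pulled-down RNA, fewer cells of a type, less RNA per cell and a larger share of RNA from other cells therefore cannot be told apart.

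Olig2, Olig1, Cd44, Sox2 and Vim, 5 of the 8 markers, were higher in all 5 tumour libraries than in any of the 6 brain libraries. Of all 15605 genes tested, 8.73% were higher in tumour in this way. Prom1, Nes and Pdgfra overlapped between the tissues, Prom1 through wild type tumour replicate 2 alone. On log2(FPKM + 1), limma (adjusted over all genes tested, threshold 0.05) called 4 of the 8 markers higher and 0 lower in tumours of knockout mice, where 4.79% of all genes were called higher and 2.29% lower (7.08% in all). In wild type mice it called 5 higher and 1 lower, where 7.7% of all genes were called higher and 11.7% lower (19.4% in all). Within knockout mice, 6 of the 8 markers were higher and 2 lower without overlap, where 22.0% of all genes were higher and 28.6% lower in this way (50.7% in all). Within wild type mice 5 were higher and 0 lower, where 12.7% were higher and 19.8% lower (32.5% in all). The median log2 change of the 8 markers was 1.96 in knockout and 2.06 in wild type mice, against -0.18 and -0.27 over all genes. In the same libraries, 3 of 12 endothelial markers were called lower in tumour in knockout and 6 of 12 in wild type mice, and of 10 neuron markers 1 and 9 were called lower, with 0 of either list called higher. Under quantile normalization the share of all calls that were higher was 63.3% in knockout and 52.2% in wild type mice, under upper quartile scaling 85.2% and 52.8%, and under endothelial scaling 98.8% and 95.1%, against 67.7% and 39.7% with FPKM as deposited. How far these shifts contribute to the markers' changes was not tested.

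**Figure D1:**
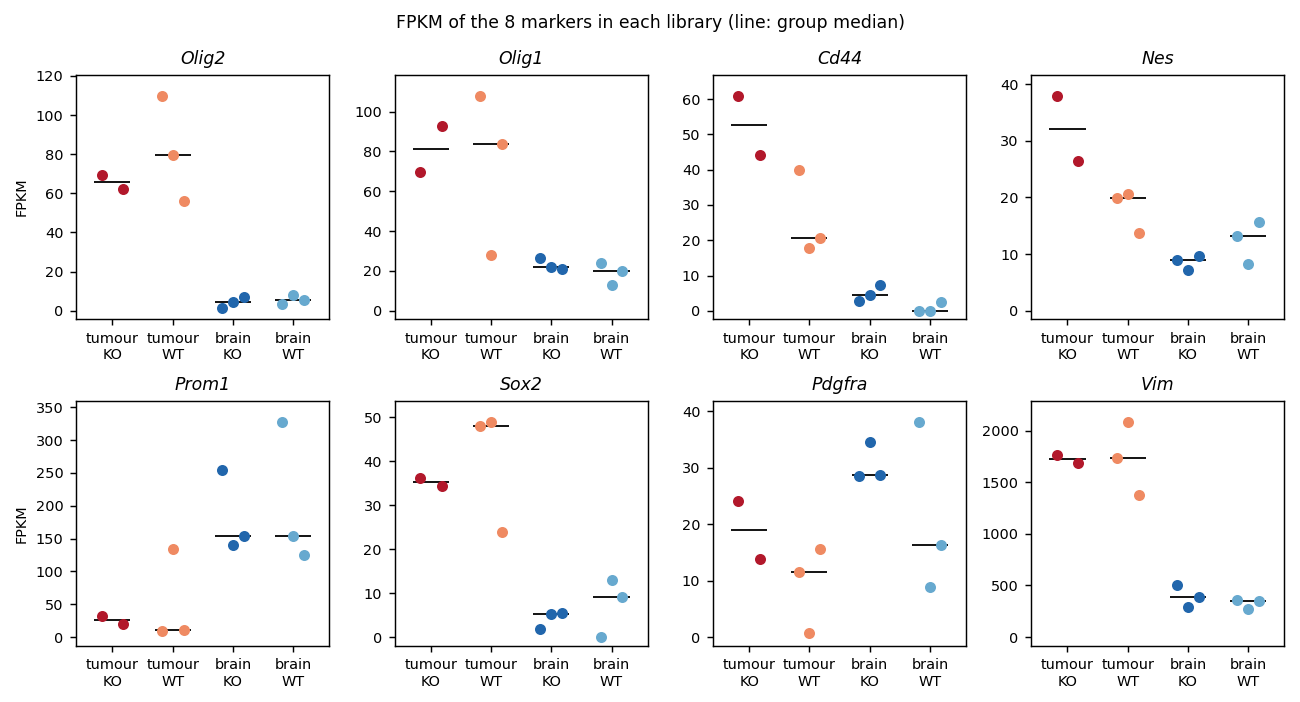
FPKM of the 8 markers in each library, with 1 point per library and a line at the group median. The groups are tumour of knockout (KO) and wild type (WT) mice and brain of knockout and wild type mice, each panel on its own linear axis. Olig2, Olig1, Cd44, Sox2 and Vim lie higher in every tumour library, Prom1 lies lower except in wild type tumour replicate 2 (134 FPKM), and Nes and Pdgfra overlap.

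Among the transcription factors, Olig2 had the largest log2 change between tumour and brain. Olig2 was listed at 69.5 and 62.4 FPKM in knockout tumours and 109.7, 79.5 and 55.9 in wild type tumours, against 1.46, 4.57 and 6.96 in knockout brains and 3.42, 7.82 and 5.34 in wild type brains. The lowest tumour library was thus far above the highest brain library, and the genotypes overlapped within each tissue. The log2 change was 3.81 in knockout mice (SE 0.59, limma adjusted p = 0.00331) and 3.67 in wild type mice (SE 0.52, adjusted p = 0.00121). The wild type call held in 22 of 22 alternative settings and the knockout call in 21 of 22, with the loss when knockout tumour replicate 1 was left out (adjusted p = 0.0636). The gene lies on chromosome 16 from 91225550 to 91228677 (GRCm38.p6), and its 3′ part overlaps Gm52261, a predicted long non-coding RNA that is not analysed here.

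Olig1, the neighbouring paralogue at 91269769 to 91271939 on the same chromosome, had a smaller separation and a higher level in brain than Olig2. Olig1 was listed at 69.9 and 92.7 FPKM in knockout tumours and 108, 27.9 and 83.9 in wild type tumours, against 26.3, 22.2 and 21.0 in knockout brains and 23.7, 12.9 and 20.1 in wild type brains. Wild type tumour replicate 2, at 27.9, lay just above the highest brain library. The Olig1 log2 change was 1.76 (SE 0.54, adjusted p = 0.0738) in knockout mice, which did not pass, and 1.74 (SE 0.48, adjusted p = 0.0289) in wild type mice, which did. Without wild type tumour replicate 2 the wild type change was 2.31 (adjusted p = 0.00319) and the knockout contrast passed as well (adjusted p = 0.0126). The wild type call was lost without wild type tumour replicate 1 (1.36, adjusted p = 0.104) or 3 (1.54, 0.0618) and without wild type brain replicate 2 (1.5, 0.0885) or 3 (1.80, 0.0579).

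The balance between the 2 factors also separated the tissues. Within a library, the FPKM of Olig2 divided by that of Olig1 was 0.995 and 0.673 in knockout tumours and 1.02, 2.85 and 0.666 in wild type tumours, against 0.0554, 0.206 and 0.331 in knockout brains and 0.144, 0.607 and 0.266 in wild type brains. The ratio was higher in every tumour library than in any brain library, with wild type brain replicate 2 close to the lowest tumour. Both values come from the same library, so the ratio does not depend on its scaling.

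Sox2 was low in brain and several-fold higher in tumour. It was listed at 36.2 and 34.5 FPKM in knockout tumours and 48.1, 48.9 and 23.9 in wild type tumours, against 1.86, 5.26 and 5.44 in knockout brains and 0, 12.9 and 9.15 in wild type brains. No tumour library overlapped a brain library, and wild type brain replicate 1, with 6.15% of expressed genes at 0, was listed at 0. Its log2 change in tumour was 2.90 (SE 0.97, adjusted p = 0.0939) in knockout mice, which did not pass, and 2.92 (SE 0.87, adjusted p = 0.0369) in wild type mice, which passed in 10 of 22 alternatives. The wild type call was lost without wild type tumour replicate 1 (adjusted p = 0.103) or 2 (0.0899), either knockout tumour (0.0554 and 0.0551) or knockout brain replicate 2 (0.0519) or 3 (0.0527). Without wild type brain replicate 1 the wild type change was 1.73 (adjusted p = 0.0641) and the knockout contrast passed (adjusted p = 0.0132).

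Sox2 (chromosome 3, 34649995 to 34652461) lies inside the span of Sox2ot, a long non-coding RNA. Reads of the pair can be confused, and how counting assigned them is not known. Sox2ot was listed at 6.47 and 3.70 FPKM in knockout tumours and 4.40, 29.0 and 10.7 in wild type tumours, against 8.61, 16.9 and 18.3 in knockout brains and 16.4, 20.7 and 16.2 in wild type brains. Its log2 change was -1.33 (SE 0.70, adjusted p = 0.267) in knockout and -0.59 (SE 0.63, adjusted p = 0.541) in wild type mice, so neither contrast passed. In every tumour library Sox2 was above Sox2ot, with ratios of FPKM from 1.68 to 10.9, and in every brain library it was below, from 0 to 0.623.

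Vim had the highest FPKM of the 8 markers in every library. It was listed at 1764 and 1687 FPKM in knockout tumours and 1730.5, 2080.1 and 1374 in wild type tumours, against 508, 296 and 388 in knockout brains and 356, 275 and 352 in wild type brains. The tumour groups were alike, at 1726 ± 54.9 FPKM in knockout (SD, n = 2) and 1728 ± 353 in wild type (SD, n = 3). For Vim the log2 change was 2.15 (SE 0.30, adjusted p = 0.00218) in knockout and 2.38 (SE 0.27, adjusted p = 0.000422) in wild type mice, and both calls held in 22 of 22 alternatives. Vim made up between 83.3% and 86.3% of the summed FPKM of the 8 markers in tumour libraries and between 46.7% and 64.5% in brain libraries.

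Nes, the filament partner of vimentin, had a smaller log2 change between tumour and brain than Vim in both genotypes. It was listed at 37.9 and 26.4 FPKM in knockout tumours and 19.8, 20.7 and 13.8 in wild type tumours, against 8.88, 7.24 and 9.68 in knockout brains and 13.1, 8.21 and 15.7 in wild type brains. Tumour and brain overlapped in wild type mice and not in knockout mice. The log2 change of Nes was 1.77 (SE 0.49, adjusted p = 0.0497) in knockout mice, just inside the threshold, and 0.54 (SE 0.43, adjusted p = 0.414) in wild type mice. The difference between the genotypes' tissue contrasts was 1.23 (SE 0.65), and it did not pass (limma adjusted p = 1.00), so the 2 contrasts are not shown to differ. The knockout call passed in 11 of 22 alternatives and was lost without either knockout tumour (adjusted p = 0.386 and 0.151), any knockout brain (0.0993 to 0.128), replicate 1 of the wild type tumours (0.0602), or replicate 1 (0.0547) or 3 (0.0633) of the wild type brains. Nes stood at 2.15% and 1.56% of the FPKM of Vim in knockout tumours and 1.15%, 0.994% and 1.00% in wild type tumours, against 1.75%, 2.45% and 2.49% in knockout brains and 3.70%, 2.98% and 4.45% in wild type brains.

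Among the surface proteins, Cd44 had the largest log2 change of the 8 markers in wild type mice. It was listed at 60.9 and 44.2 FPKM in knockout tumours and 39.9, 17.7 and 20.6 in wild type tumours, against 2.77, 4.51 and 7.37 in knockout brains and 0, 0 and 2.43 in wild type brains. The 4 groups did not overlap at all: knockout tumours were highest, then wild type tumours, knockout brains and wild type brains. Wild type brain replicates 1 and 2, both listed at 0, had 6.15% and 4.26% of expressed genes at 0. The level of that group and the wild type change depend on these libraries. The log2 change was 3.25 (SE 0.72, adjusted p = 0.0209) in knockout mice, where 17 of 22 alternatives passed, and 4.08 (SE 0.64, adjusted p = 0.00211) in wild type mice, where 22 of 22 passed. Left-out libraries that ended the knockout call were either knockout tumour (adjusted p = 0.220 without replicate 1 and 0.109 without replicate 2) and knockout brain replicates 1 (0.0739) and 2 (0.0614).

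Prom1 went the other way. It was listed at 31.6 and 19.3 FPKM in knockout tumours and 9.70, 134 and 11.0 in wild type tumours, against 254, 141 and 153 in knockout brains and 327, 154 and 125 in wild type brains. Wild type tumour replicate 2 lay within the range of the brains, and the other 4 tumours lay far below it. The Prom1 log2 change was -2.79 (SE 0.91, adjusted p = 0.0862) in knockout mice, which did not pass, and -2.84 (SE 0.81, adjusted p = 0.0315) in wild type mice. Without wild type tumour replicate 2 the wild type change was -4.03 (adjusted p = 0.000849) and the knockout contrast passed (adjusted p = 0.00486), whereas the wild type call was lost without wild type tumour replicate 1 (adjusted p = 0.111) or 3 (0.0805) and without wild type brain replicate 1 (0.102) or 2 (0.0642).

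Endothelial markers are given here beside Prom1, and their part in its values was not tested. Libraries were scaled to the geometric mean of FPKM + 1 over the 12 endothelial markers. This moved the median of all genes to 0.85 in knockout and 0.82 in wild type mice (-0.18 and -0.27 before scaling). After it the Prom1 change was -1.48 (limma adjusted p = 0.277) and -1.36 (adjusted p = 0.201). Wild type tumour replicate 2, the tumour with the highest Prom1, also had the highest summed endothelial level among the tumours (809 FPKM) and the highest Adgrl4 (192 FPKM). Its geometric mean of FPKM + 1 over the 12 endothelial markers was 27.7, below one knockout tumour (34.3) and close to the other (28.5). On the same scale Nes was higher in tumour by 2.97 in knockout mice (adjusted p = 0.00231) and by 1.98 in wild type mice (adjusted p = 0.0067), and Olig2, Cd44 and Vim kept their calls in both genotypes.

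Pdgfra, the growth factor receptor, gave no call in any comparison. It was listed at 24.1 and 13.8 FPKM in knockout tumours and 11.5, 0.670 and 15.5 in wild type tumours, against 28.6, 34.6 and 28.7 in knockout brains and 38.0, 8.85 and 16.4 in wild type brains. Both knockout tumours lay below the knockout brains, and the wild type groups overlapped. For Pdgfra the log2 change was -0.71 (95% interval -2.68 to 1.26, adjusted p = 0.680) in knockout and -1.42 (-3.19 to 0.34, adjusted p = 0.237) in wild type mice, so changes of several-fold downwards lie within the intervals. Without wild type tumour replicate 2, at 0.670 FPKM, the wild type change was -0.39 (adjusted p = 0.678).

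**Figure D2:**
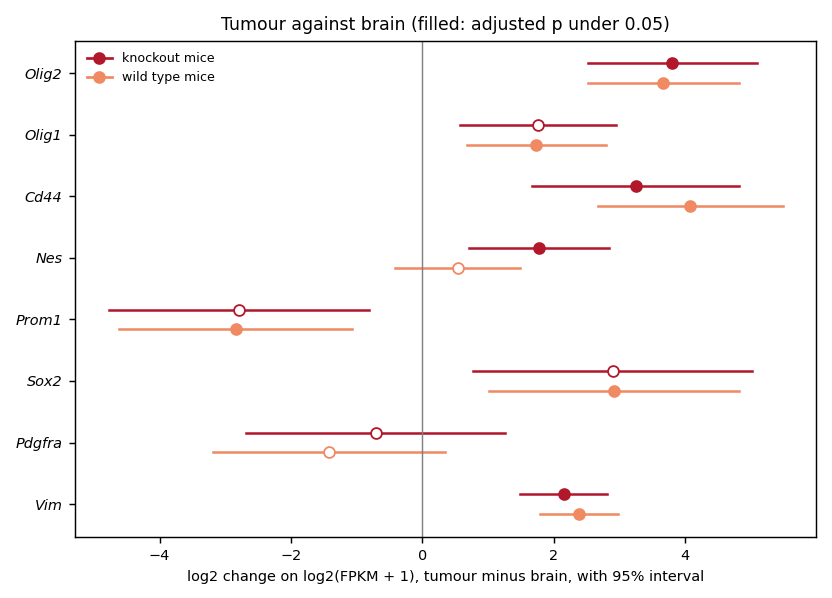
Log2 change of each marker in tumour against brain on log2(FPKM + 1), in knockout mice (dark red) and wild type mice (orange). Bars are 95% intervals from limma, and filled points passed the adjusted threshold of 0.05. Olig2, Cd44 and Vim passed in both genotypes, Nes in knockout mice, and Olig1, Sox2 and Prom1 in wild type mice.

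The host's genotype was compared within each tissue. In tumour, limma called 0 of the 8 markers between knockout and wild type mice, 0 had an unadjusted p under 0.05, and 0.0192% of all genes were called. In brain it called 0 of 8, 1 had an unadjusted p under 0.05, and 0.00641% of all genes were called. For the difference between the 2 genotype contrasts the count was 0 of 8, with 0 at an unadjusted p under 0.05 and 0.00641% of all genes called. The adjusted p was 1 for each of the 8 markers in both tissues. Adgrl4, the gene knocked out, was itself not called, with log2 differences of -2.78 in tumour (limma adjusted p = 0.902) and -2.46 in brain. A count of 0 called therefore does not show that the markers are alike between the genotypes.

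Cd44 and Nes were higher in both knockout tumours than in any wild type tumour, and 0 of the 8 were lower in this way. Of all genes tested, 10.8% were higher and 4.61% lower without overlap (15.4% in all). The log2 difference of Cd44 was 1.06 (95% interval -0.52 to 2.63) and that of Nes 0.79 (-0.27 to 1.85). Median differences in tumour were 0.16 over all genes and 0.18 over the 8 markers. Medians of the other gene lists described below ran from -0.26 (lymphocyte) to 1.31 (neuron). The endothelial median was 0.63 and that of the microglia and macrophage list 0.56. In brain, Cd44 alone of the 8 was higher in every knockout library than in any wild type library, and 0 were lower, against 4.68% of all genes higher and 3.84% lower (8.52% in all). The log2 difference of Cd44 there was 1.89 (0.48 to 3.30, limma unadjusted p = 0.0129, adjusted p = 1). Cd44 was listed at 0 in 2 of the 3 wild type brains, so that value rests on low levels, and it was 2.49 at a pseudocount of 0.5 and 3.98 at 0.1. Those brains, replicates 1 and 2, had 6.15% and 4.26% of expressed genes at 0, against 0.291% in replicate 3.

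The tightest comparison was that of Vim, with a log2 difference of 0.02 (95% interval -0.65 to 0.68) in tumour and 0.25 (-0.34 to 0.85) in brain. Olig2 differed by -0.25 (-1.54 to 1.03) in tumour and -0.39 (-1.54 to 0.75) in brain, and Olig1 by 0.34 (-0.85 to 1.53) and 0.31 (-0.75 to 1.38). Wider still were Sox2, with -0.12 (-2.24 to 2.01) in tumour and -0.10 (-1.99 to 1.80) in brain, and Prom1, with -0.01 (-2.0 to 1.97) and -0.06 (-1.84 to 1.71). Pdgfra differed by 1.46 (-0.52 to 3.43) in tumour and 0.74 (-1.02 to 2.51) in brain, and by 0.42 in tumour without wild type tumour replicate 2 and 0.28 in brain without wild type brain replicate 2. Of these markers, Vim alone has intervals that stay within 1 log2 unit of 0 in both tissues.

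**Figure D3:**
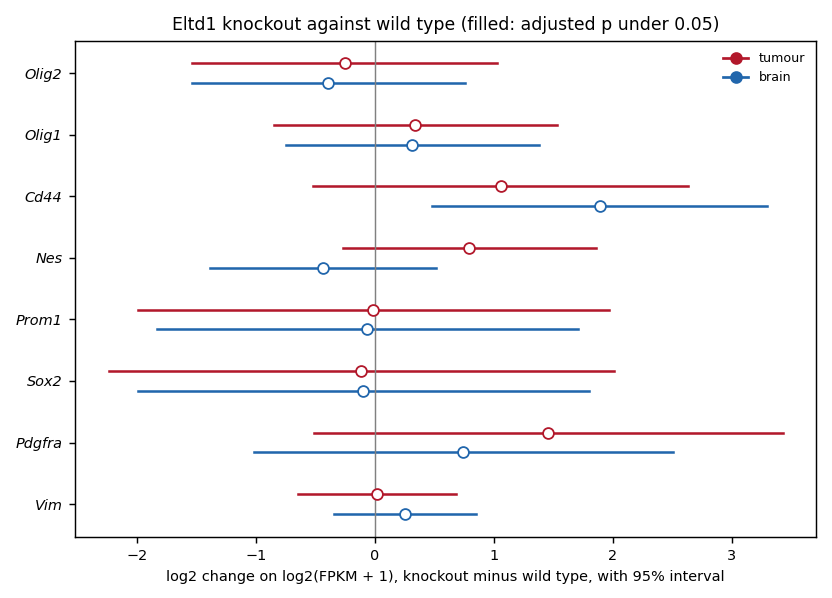
Log2 difference of each marker between knockout and wild type mice on log2(FPKM + 1), in tumour (red) and brain (blue), with 95% intervals from limma. All points are open because 0 of the 8 markers passed in either tissue, and the interval of Cd44 in brain (0.48 to 3.30) is the one that does not reach 0.

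The markers also differed in how alike their profiles were over the 11 libraries. Likeness was measured as the root mean square difference of log2(FPKM + 1), each gene centred on its own mean, as a description. Among the 8 the smallest differences were those of Olig1 with Vim (0.64), Olig1 with Nes (0.72), Nes with Vim (0.72) and Olig2 with Sox2 (0.84), and the largest was Cd44 with Prom1 (3.53). The measure is not scaled to each gene's spread about its own mean. That spread was 0.67 for Nes, 0.99 for Olig1, 1.15 for Vim and 1.21 for Pdgfra. It was 1.70 for Prom1, 1.74 for Sox2, 1.94 for Olig2 and 2.02 for Cd44. Both differences of Nes exceeded its own spread, so they do not show a shared profile. Olig2 and Olig1, neighbours on chromosome 16, differed by 1.31.

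Among 10330 other genes, the nearest to Vim were Txnrd1 (0.19), Spata13 (0.23) and Tubb2b (0.23), and the nearest to Olig2 were Stat2 (0.28), Kif20b (0.46) and Aldh18a1 (0.46). For Sox2 they were Dcaf15 (0.29), Rcor2 (0.38) and Nmi (0.38), and for Olig1 Uaca (0.36), Nol10 (0.38) and Ptpn21 (0.39). The profile of Cd44 was nearest to those of Igf2bp3 (0.50), Nup37 (0.53) and Ifi27l2a (0.59), and that of Nes to Rtp4 (0.24), Ube4b (0.24) and Usp1 (0.29). Nearest to Prom1, at larger distances, were Rapgef4 (0.59), Tmem25 (0.63) and Emp2 (0.69), and nearest to Pdgfra were Pfkfb2 (0.33), Tmem159 (0.34) and Mpnd (0.36). All these profiles share the libraries and the split between tumour and brain.

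Other genes of the oligodendrocyte precursor programme rose in tumour in part. Of 14, limma called 4 higher and 0 lower in knockout and 3 higher and 0 lower in wild type mice, with list medians of 1.45 and 0.22. The change was above 0 in 9 of the 14 in knockout and 7 in wild type mice. Over all genes, 4.79% were called higher and 2.29% lower in knockout mice, and 7.7% and 11.7% in wild type mice. These shares apply to every list below. Sox10, the lineage's partner factor of Olig2, was listed at 158 and 98.2 FPKM in knockout tumours and 169, 109 and 137 in wild type tumours, against 13.3, 4.37 and 14.2 in knockout brains and 22.8, 14.9 and 12.4 in wild type brains. It rose by 3.57 (SE 0.52) in knockout and 3.00 (SE 0.46) in wild type mice. Cspg4, the NG2 proteoglycan, rose by 3.21 (SE 0.60) and 2.08 (SE 0.53), and the factor Sox6 by 3.33 (SE 0.65) and 2.62 (SE 0.58). Gpr17, a receptor of maturing precursors named after its values were seen, was the fourth call in knockout mice (2.30, SE 0.57). The cadherin Pcdh15 did not pass in either genotype (adjusted p = 0.108 and 0.0695). Mature oligodendrocyte markers did not share this direction: 0 of 10 rose in either genotype and 3 and 4 of 10 fell, among them Mobp, a protein of myelin-forming cells, by 2.85 (SE 0.73) and 2.05 (SE 0.65).

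Neural stem and progenitor genes outside the 8 were mixed. Of the 20 tested of 22, 3 rose and 0 fell in knockout and 4 rose and 0 fell in wild type mice, and the list medians were 0.15 and -0.46. The change was above 0 in 10 of the 20 in knockout and 7 in wild type mice. Sox4, an SRY-related factor, rose by 2.22 (SE 0.54) and 2.63 (SE 0.49), and the cell cycle kinase Cdk6 by 3.42 (SE 0.84) and 3.30 (SE 0.75). Hmga2, a chromatin protein of embryonic cells, was called higher in both genotypes, with 10.2 and 9.55 FPKM in knockout tumours and 7.90, 5.83 and 12.4 in wild type tumours, and it was listed at 0 in all 6 brains. Fabp7, the fatty acid binding protein of radial glia, rose by 4.20 (SE 1.16, adjusted p = 0.0275) in wild type mice and did not pass in knockout mice (2.75, SE 1.30, adjusted p = 0.216).

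Of 11 intermediate filament partners, 2 rose and 0 fell in knockout and 4 rose and 1 fell in wild type mice. Prph, a filament protein of peripheral neurons, was listed at 207 and 235 FPKM in knockout tumours and 253, 180.4 and 108 in wild type tumours, against 5.13, 0.188 and 0.511 in knockout brains and 0, 6.19 and 0 in wild type brains. Lamin B1 (Lmnb1) rose by 2.17 (SE 0.52) and 3.48 (SE 0.46), and lamin A (Lmna) by 1.62 (SE 0.47) in wild type mice, with 1.23 (adjusted p = 0.174) in knockout mice. Gfap, the astrocyte filament, was the other gene that rose in wild type mice (1.65, SE 0.48), named after its values were seen. Ina, a neuronal filament, fell by 2.72 (SE 0.76) in wild type mice and did not pass in knockout mice (-2.39, adjusted p = 0.113).

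Of the 13 tested CD44 ligands and partners, 3 rose and 0 fell in knockout and 4 rose and 1 fell in wild type mice. Hmmr, a hyaluronan receptor that is also a mitotic protein, rose by 3.52 (SE 0.90) and 3.91 (SE 0.81). Cd74, the invariant chain of MHC class II and a partner of CD44, was listed at 333 and 286 FPKM in knockout tumours and 265, 301 and 69.8 in wild type tumours, against 2.07, 0.431 and 0.471 in knockout brains, and it was listed at 0 in the 3 wild type brains. The membrane linkers moesin (Msn) and ezrin (Ezr) rose by 1.44 (SE 0.33) and 2.64 (SE 0.80) in wild type mice, and in knockout mice their values of 1.03 and 1.45 did not pass (adjusted p = 0.112 and 0.348). Named after their values were seen, the hyaluronan synthase Has2 was the third call in knockout mice (2.75, SE 0.57), and Has1 was the one that fell in wild type mice (-1.89, SE 0.61). Of 5 PDGF genes, 0 rose in either genotype, and the ligands Pdgfb and Pdgfd fell in wild type mice by 1.45 (SE 0.39) and 2.04 (SE 0.64), while Pdgfa (0.14 in knockout and -0.51 in wild type mice) and the receptor Pdgfrb (-0.87 and 0.42) did not pass.

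Mesenchymal state genes, the programme with which Cd44 and Vim are grouped in glioma, rose in part. Of the 16 tested of 17, 5 rose and 0 fell in knockout and 6 rose and 0 fell in wild type mice, with medians of 1.96 and 1.51. The galectins Lgals1 and Lgals3 rose by 5.44 (SE 0.89) and 4.92 (SE 0.78) in knockout and by 6.30 (SE 0.80) and 4.54 (SE 0.70) in wild type mice. The matrix protein Tgfbi rose by 4.29 (SE 0.81) and 4.59 (SE 0.73), and the factor Runx1 by 2.06 (SE 0.55) and 2.75 (SE 0.49). Among markers of dividing cells, 14 of 15 rose in knockout and 15 of 15 in wild type mice, with Top2a, the topoisomerase of dividing cells, at 6.38 (SE 0.65) and 7.52 (SE 0.58). Cdk1 rose by 4.57 (SE 0.57) and 6.91 (SE 0.51), Cdc20 by 6.74 (SE 0.56) and 6.4 (SE 0.50), and Ccnb1 by 6.21 (SE 0.61) and 6.4 (SE 0.55).

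**Figure D4:**
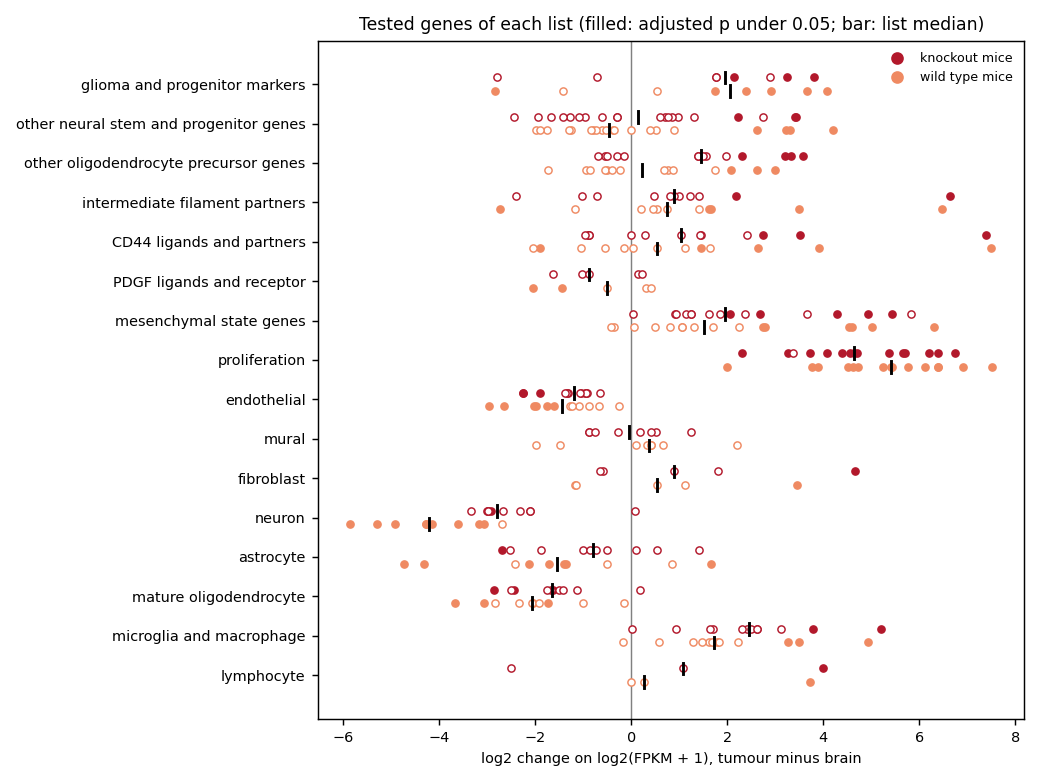
Log2 change of every tested gene of each list in tumour against brain on log2(FPKM + 1), in knockout mice (dark red, upper row of each pair) and wild type mice (orange, lower row). Filled points passed the adjusted threshold of 0.05 and black bars are list medians. The medians of the 8 markers (1.96 and 2.06) lie between those of the proliferation genes (4.64 and 5.42) and those of the endothelial markers (-1.19 and -1.44). Medians of the mesenchymal state genes (1.96 and 1.51) and of the microglia and macrophage markers (2.45 and 1.73) lie near those of the 8. Prom1 (-2.79 and -2.84) lies below the endothelial medians, and the neuron medians are -2.80 and -4.21.

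Lists of markers of the other cells a tumour or brain sample could hold differed in how many members were called. Over all genes, 4.79% were called higher and 2.29% lower in knockout mice, and 7.7% and 11.7% in wild type mice. The counts of the 2 genotypes thus differ in their background and were not compared. Of 12 microglia and macrophage markers, 2 were called higher in tumour in knockout and 4 in wild type mice and 0 lower. The median log2 change of this list was 2.45 in knockout and 1.73 in wild type mice, against 1.96 and 2.06 for the 8 markers. Its summed level was 410 to 426 FPKM in knockout tumours and 152 to 338 in wild type tumours, against 44.9 to 57.1 in knockout brains and 46.1 to 67.9 in wild type brains. Astrocyte markers, which bear on Sox2, Nes and Vim, were called lower in 1 of 10 genes in knockout and 6 of 10 in wild type mice, with Gfap alone higher in wild type mice, and summed to 439 to 598 FPKM in knockout tumours and 287 to 756 in wild type tumours, against 1001 to 1236 in knockout brains and 1103 to 1661 in wild type brains. Of the 5 tested of 8 fibroblast markers, which bear on Pdgfra, only Col3a1 passed, with rises of 4.66 (SE 0.64) and 3.46 (SE 0.57). The list summed to 38.1 to 47.9 FPKM in knockout tumours and 18.6 to 22.7 in wild type tumours, against 5.15 to 19.1 in knockout brains and 1.90 to 15.8 in wild type brains, and Dpt and Mfap5 were listed at 0 in all 11 libraries. Of 8 tested mural markers 0 passed (limma), and of 3 tested lymphocyte markers Lck alone rose, by 4.00 (SE 0.67) and 3.73 (SE 0.60). The part of each of these cell types in the markers' values was not tested.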

How the data were processed

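The study measured RNA bound to eGFP-tagged endothelial ribosomes (translating ribosome affinity purification) in 11 libraries of 4 groups. Per the labels' protocols, ribosomal RNA was depleted and libraries were made with a strand-preserving kit. Per the file headers, the deposited values are FPKM. The submitters' processing notes name TopHat2 2.1.1, Cufflinks 2.2.1 and GRCm38. The annotation and the strand setting were not given in the sources used here. Each library listed 46073 entries. The 398 entries of 190 repeated symbols were summed, leaving 45865 genes. No steps of whole reads were found: over pairs of libraries, 0.216% to 1.18% of the low genes shared the most frequent ratio (tolerance 0.1%), so depth is unknown and no counting interval is given.

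The 15605 genes that reached 1 FPKM in 2 or more libraries were tested on log2(FPKM + 1), a scale that understates changes of low genes. With limma 3.58.1 (R 4.3.3), 1 mean per group was fitted over all 11 libraries (7 residual degrees of freedom, eBayes with trend), two-sided, with Benjamini-Hochberg adjustment per contrast at 0.05. The fit was tested on simulated data. Named were the 8 markers, Adgrl4, annotated genes that overlap a marker, up to 4 genes per list with the smallest p in wild type tumour against brain, and the 3 genes nearest to each marker in profile among those with a mean FPKM of at least 5. The markers and lists were chosen with earlier results of these data known. Replicates are separate mouse samples, whose numbers only name them.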

Additional observations from a re-analysis of the deposited data

How the results depend on the processing

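Of 22 alternatives for each marker in tumour against brain, 141 of 176 values in knockout mice and 150 of 176 in wild type mice kept their direction and side of the threshold, and 1 reversed without being called in either setting: Pdgfra in knockout mice under endothelial scaling (0.56). Values called in neither setting are among those that kept their side. In knockout mice 17 values lost a call and 17 gained one, and in wild type mice 25 lost a call and 1 gained one. Between genotypes, reversals were all of values that passed in no setting, and the causes were not tested. Sequencing depth is unknown, and 2 knockout tumours limit precision. No paired analysis was possible because the labels number the samples 1 to 11 across all groups, and the replicate numbers used here were given in accession order and only name samples.

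Markers called in tumour against brain numbered 4 of 8 in knockout mice, with 2 at a pseudocount of 0.1, 7 under quantile normalization, library weights or only the groups compared, and 1 to 6 with single libraries left out. In wild type mice the count was 6, with 3 for only the groups compared and 3 to 6 with single libraries left out. All genes called in knockout mice (1105) came to 710 at a pseudocount of 0.1, 1822 under quantile normalization, 2591 under endothelial scaling, 4124 with library weights, 3257 for only the groups compared, 2756 without wild type tumour replicates 2 and 3, and 147 to 2009 with single libraries left out. In wild type mice (3025) they came to 1927 under upper quartile scaling, 4937 with library weights, 1090 for only the groups compared, and 1817 to 3886 with single libraries left out.

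Genes called between genotypes in tumour (3) came to 14 with no filter, 1 with a filter of 5 FPKM or quantile normalization, 62 with library weights, 0 for only the groups compared, 19 without wild type tumour replicates 2 and 3, and 0 to 29 with single libraries left out. In brain (1) they came to 0 at a pseudocount of 0.1, a filter of 5 FPKM, endothelial scaling, only the groups compared or without those replicates, and 0 to 4 with single libraries left out. For the difference between the contrasts (1) they came to 0 with no filter or quantile normalization, 4 with library weights, 8 without those replicates, and 0 to 13 with single libraries left out.

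Reversed log2 differences between genotypes in tumour were those of Prom1 at pseudocounts of 0.1 (0.016) and 0.5 (0.0025), under upper quartile scaling (0.31), quantile normalization (0.11), library weights (1.04) and without wild type tumour replicates 2 and 3 (1.26), of Olig2 (0.059) and Sox2 (0.20) under upper quartile scaling, of Olig1 under endothelial scaling (-0.21), library weights (-0.27) and without those replicates (-0.42), and of Vim under endothelial scaling (-0.54) and without those replicates (-0.0044). In brain they were those of Sox2 at pseudocounts of 0.1 (0.76) and 0.5 (0.11), of Prom1 under upper quartile scaling (0.16), quantile normalization (0.052) and library weights (0.14), and of Olig1 (-0.035) and Vim (-0.11) under endothelial scaling. For the difference between the contrasts they were those of Sox2 under upper quartile scaling (0.22), quantile normalization (0.45) and library weights (0.15), of Pdgfra under quantile normalization (-0.12), library weights (-0.078) and without those replicates (-0.12), of Olig2 under endothelial scaling (-0.25), library weights (-0.30) and without those replicates (-0.34), of Olig1 in the same 3 settings (-0.18, -0.52 and -0.73), and of Prom1 under endothelial scaling (-0.11).

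With single libraries left out, the tumour values ran from -0.14 to 0.16 for Vim, -0.65 to 1.18 for Prom1, 0.42 to 2.07 for Pdgfra, -0.45 to 0.055 for Sox2 and -0.24 to 0.72 for Olig1. The brain values ran from -0.34 to 0.35 for Prom1, 0.28 to 1.27 for Pdgfra, -1.29 to 0.61 for Sox2 and -0.76 to 0.087 for Olig2. The differences between contrasts ran from -0.59 to 1.24 for Prom1, -0.55 to 0.40 for Olig1, -0.73 to 1.17 for Sox2, -0.34 to 0.51 for Olig2 and -0.32 to 1.33 for Pdgfra.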
